A study of Mus musculus with 2 samples.

Results

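The 92 autosomal protein-coding genes of the mouse whose symbol begins with Kcn, the potassium channel genes, are described here by the chromatin loops that reach their ends. They were taken from 20665 autosomal protein-coding genes of the RefSeq table for GRCm38.p6, the assembly of mm10. A loop was counted for a gene when one of its anchors lay within 2.5 kb of either end of the gene, and by this rule 86 loops were found in the sham list and 112 in the list after stroke. By symbol, 41 genes were Kcna to Kcnh or Kcnq, 15 were Kcnj, 14 were Kcnk, 15 were Kcnm to Kcnt without Kcnq, and the other 7 were Kcnip, Kcnu and Kcnv genes. The symbols starting with Kcn thus include helper subunits as well as pores.

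The loops came from Hi-C, which joins and sequences pieces of DNA that lie close together in the nucleus, on mouse cerebral cortex of the operated side. In the stroke group the middle cerebral artery was closed by a filament for 1 h, an operation called middle cerebral artery occlusion (MCAO), and blood flow was restored for 6 h. Sham animals had the operation without the filament, and the time of 6 h is listed for this group as well. The labels mention 3 cortices in a group, whose pooling is not stated, and strain, age and sex are not used here. Since each group is a single library, differences are given without replication and without a test. The sham library held 34974213 paired-end tags (PETs, sequenced pairs that join 2 places) and 14779 loops, and the MCAO library held 40550536 PETs and 15592 loops, a depth ratio of 1.16. Each listed loop had at least 10 PETs, so a loop missing from a list may lie just below that number. Intervals are at 95% and hold counting error alone.

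Potassium channels let potassium ions leave or enter the cell along their gradient and so set the resting potential and end each action potential. Voltage-gated channels open when the membrane depolarises, inward rectifiers hold the membrane near rest and let glia take up potassium, two-pore channels carry a steady leak, and calcium- or sodium-activated channels link the membrane to ions inside the cell. In the ischaemic brain loss of the potassium gradient depolarises neurons and glia. A loop at a gene end is a frequent contact in the nucleus and is not a measure of the gene's expression.

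The 250 bases upstream of a RefSeq start site are shown for 4 genes with loops described in detail, since in each the start lay inside loop anchors of both lists. They are Kcnq5 (chr1:21962651-21962900, minus strand), the member with most loops, Kcnj2 (chr11:111065914-111066163, plus strand), Kcnd2 (chr6:21215096-21215345, plus strand), whose loops had no counterpart in the other list, and Kcnj9 (chr1:172329323-172329572, minus strand), which had fewer loops in MCAO. All are from RefSeq on GRCm38.p6 and read 5′ to 3′ on the gene's strand. The capitals in Kcnj2 mark a match to a simplified core of the motif of CTCF, a protein that anchors loops.
Kcnq5: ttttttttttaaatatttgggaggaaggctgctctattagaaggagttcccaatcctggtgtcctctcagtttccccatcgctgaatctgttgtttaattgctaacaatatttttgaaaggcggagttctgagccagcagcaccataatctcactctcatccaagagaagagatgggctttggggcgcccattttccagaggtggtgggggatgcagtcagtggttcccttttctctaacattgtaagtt
Kcnj2: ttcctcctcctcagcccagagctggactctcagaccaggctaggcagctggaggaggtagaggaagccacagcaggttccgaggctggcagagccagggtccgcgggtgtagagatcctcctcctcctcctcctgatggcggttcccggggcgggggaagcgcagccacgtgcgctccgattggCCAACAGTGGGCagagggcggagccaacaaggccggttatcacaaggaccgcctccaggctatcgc
Kcnd2: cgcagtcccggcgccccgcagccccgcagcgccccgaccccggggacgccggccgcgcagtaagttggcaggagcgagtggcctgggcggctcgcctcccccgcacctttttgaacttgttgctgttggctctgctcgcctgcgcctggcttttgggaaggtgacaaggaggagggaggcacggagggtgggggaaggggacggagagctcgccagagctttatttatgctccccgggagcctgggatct
Kcnj9: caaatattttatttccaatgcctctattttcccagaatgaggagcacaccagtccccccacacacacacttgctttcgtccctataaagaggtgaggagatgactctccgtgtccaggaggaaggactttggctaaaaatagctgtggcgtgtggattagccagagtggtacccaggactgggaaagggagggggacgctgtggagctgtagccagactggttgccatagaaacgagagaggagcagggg

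In total 68 of the 92 genes matched an entry of the promoter table, with 93 promoters of 300 bases that run from 250 before to 50 after a start. The simplified CTCF core, searched on both strands, stood in 4 of the 93 (4.30%) and in 2.47% of all 31396 promoters. These 4 belonged to Kcnj2 (66 bases upstream of a start), Kcnk13 (47 bases), Kcnab1 (55 bases) and Kcnj16 (150 bases). For Kcnab1 and Kcnj16 the start was one inside the gene, away from its ends. Kcnj16 had no loop at its ends or elsewhere in the gene in either list. A simplified core of the motif of REST, a repressor of neuronal genes, was found in 0 of 93 member promoters and 0.0382% of all. The cAMP response element TGACGTCA was found in 0 of 93 and 1.83% of all. A match describes the letters only, and no match says nothing about a factor. The member promoters had a median of 58% G and C, against 53% for all.

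The design asks whether contacts of these genes differ between cortex after stroke and after sham surgery. Loops at potassium channel genes numbered 86 in sham (68.8 to 106) and 112 in MCAO (92.2 to 135), a ratio of 1.30 (0.974 to 1.75). The ratio per PET sequenced was 1.12 (0.841 to 1.51). Gene-end loops of all other genes numbered 7528 and 9297, a ratio of 1.24 (1.20 to 1.27), which lies within the interval of the channel genes. The PETs summed over the loops were 1964 in sham and 2245 in MCAO, which is 56.2 and 55.4 per 1000000 PETs of the library, a ratio of 0.986 (0.927 to 1.05). Scaled to depth, the ratio was thus 1.12 for loops and 0.986 for their PETs, and both intervals held 1. The median loop held 15 PETs in sham and 14 in MCAO. With the MCAO minimum raised to 12 PETs in proportion to depth, 81 loops stood against 86, a ratio of 0.942, and the other genes were at 0.828.

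Of the 92 genes, 52 had a loop in sham (56.5%, 45.8 to 66.8), and the share over all autosomal protein-coding genes was 44.5%. In MCAO 58 had one (63.0%, 52.3 to 72.9), against 49.6% of all genes. A loop in both lists was found at 40 genes (43.5%, against 30.4%), and no loop in either at 22 (23.9%, against 36.3%). The channel genes were longer than genes at large, with a median of 34.6 kb against 17.5 kb, and the 70 with a loop had a median length of 36.6 kb against 23.8 kb for the 22 without; the part of length in these shares was not tested. Those without a loop included Kcna1, a low-threshold channel of axons, Kcnk2, a mechanosensitive leak channel, and Kcnj16 and Kcnj4, both inward rectifiers.

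More loops in MCAO were listed at 38 genes (41.3%; all genes, 29.7%) and fewer at 18 (19.6%; all genes, 21.3%). With the MCAO minimum raised in proportion to depth, more loops were listed at 22 genes and fewer at 24, so the order turned. The same shares over all genes were not taken for this setting. Loops of all other genes were also fewer in MCAO there, at a ratio of 0.828 against 0.942 for channel genes. In the reported setting the difference was at most 2 loops either way, and its interval at each of the 92 genes held 0. At least 2 loops more were listed at 8 genes (8.70%; all genes, 10.2%), among them Kcnc2, Kcnc4, Kcnh1, Kcnj5, Kcnk12, Kcnk4 and Kcnn3. At least 2 fewer were listed at 2 (2.17%; all genes, 5.45%), Kcnj9 and Kcnn2. The median difference was 0 for the channel genes and for all genes. Genes with at least 3 loops numbered 8 in sham (all genes, 6.54%) and 14 in MCAO (all genes, 9.56%).

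**Figure D1:**
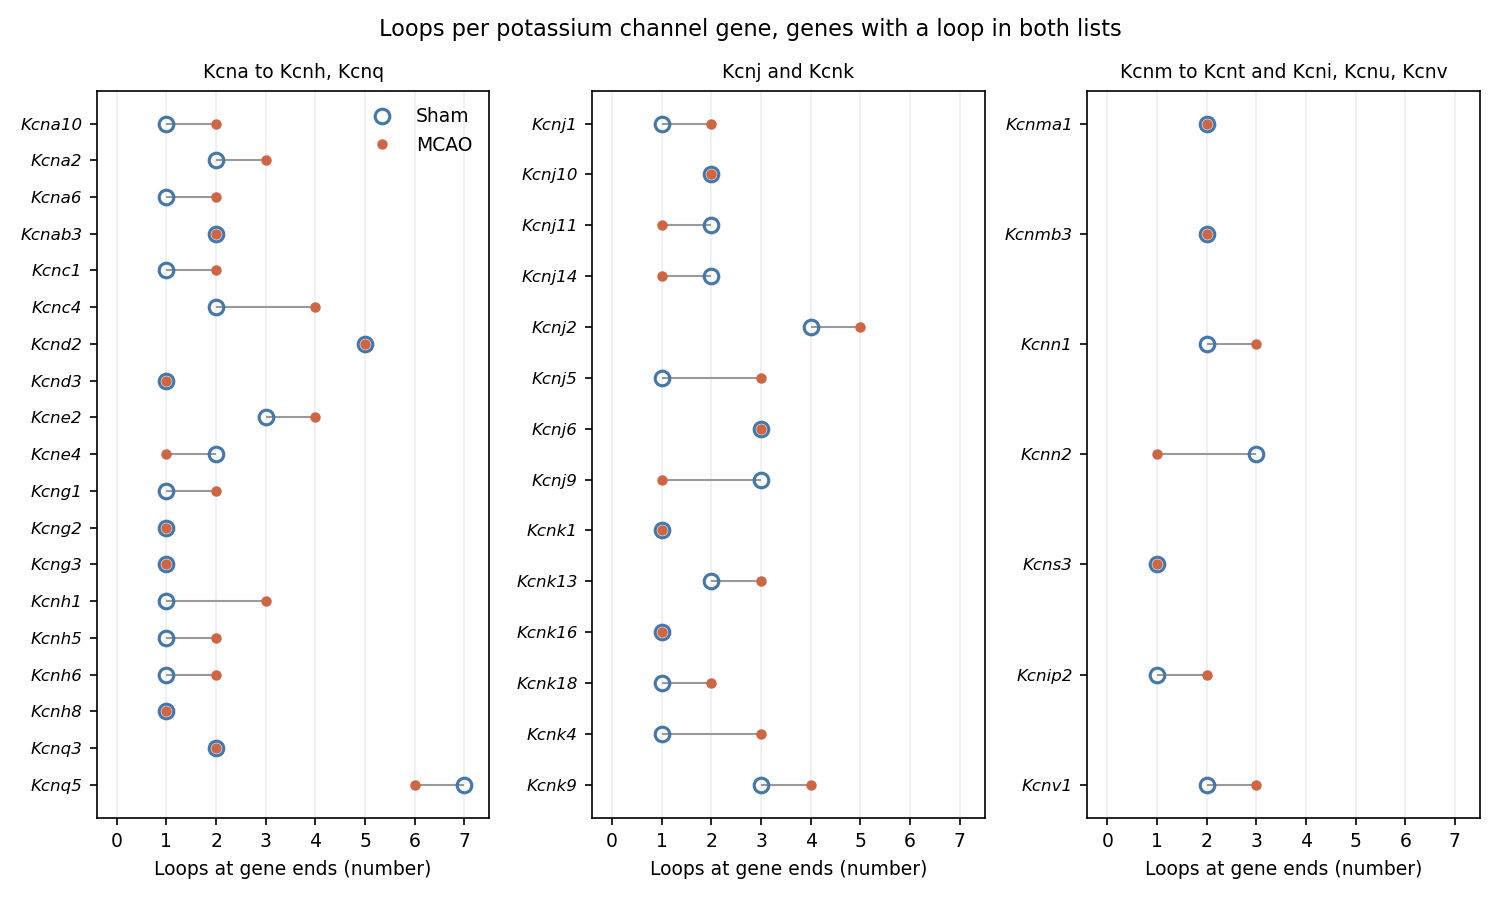
Each line is 1 of the 40 potassium channel genes with a loop in both lists, and the horizontal axis is its number of loops in sham (open circles) and MCAO (filled circles). Kcnq5, with 7 and 6 loops, and Kcnd2, with 5 and 5, stand at the right, and most genes lie between 1 and 3.

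A loop in sham alone was found at 12 genes (13%; all genes, 14.0%), each with 1 loop, and 7 of these loops held 10 to 14 PETs. A loop in MCAO alone was found at 18 genes (19.6%; all genes, 19.2%), and 14 of them had 1 loop, which held 10 to 14 PETs at 12. Most of these genes thus differ by a loop close to the minimum of 10 PETs. The sham genes include Kcnj8, the pore of a channel closed by ATP, and Kcnj3, a G protein-gated channel, each with 1 loop. The MCAO genes include Kcnh2, the channel that repolarises the heart, and Kcnt1, a sodium-activated channel, each with 1 loop. Kcna4, a fast inactivating channel, had a single MCAO loop of 58 PETs, and its partner, a sham loop of 33 PETs, missed the gene's ends. A partner is a loop in the other library whose anchor midpoints both lie within 1 anchor width.

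The voltage-gated class, Kcna to Kcnh and Kcnq, held 40 loops in sham and 58 in MCAO, a difference of 18 (-2.37 to 37.3) and a ratio of 1.45 (0.953 to 2.23). More loops were listed at 22 of its 41 genes (all genes, 29.7%) and fewer at 6 (all genes, 21.3%). Some MCAO loops of this class held 10 or 11 PETs, as at Kcna5, Kcnb2, Kcnf1 and Kcnh2. Over all channel genes such loops made up similar shares of both lists, 26.7% in sham and 27.7% in MCAO. With the MCAO minimum raised to 12 PETs, the class no longer had more loops in MCAO than in sham. All other genes were then at a ratio of 0.828, so their loops were fewer in MCAO as well. Inward rectifiers had 19 and 19 loops, with a difference of 0 (-12.6 to 12.6), and two-pore channels had 11 and 17, a difference of 6 (-5.28 to 16). The genes Kcnm to Kcnt had 12 and 12, and the remaining 7 genes had 4 and 6. Each interval of a class difference held 0. Grouped by function, the 39 pore-forming voltage-gated genes had 35 loops in sham and 54 in MCAO, a ratio of 1.54 (0.99 to 2.43), the 8 calcium- or sodium-activated channels 7 and 9, and the 16 helper subunits 14 and 13. Differences between the classes were not tested.

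**Figure D2:**
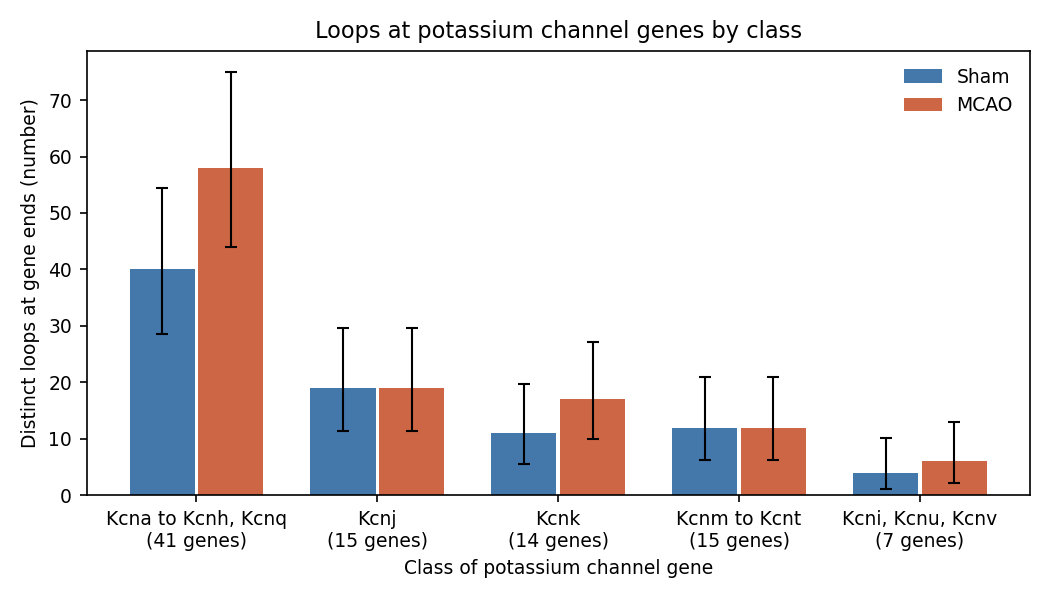
Bars give the number of distinct loops at gene ends for each class of potassium channel gene in sham and MCAO, and the error bars are exact Poisson 95% intervals. The class Kcna to Kcnh and Kcnq has 40 and 58 loops, and the intervals of sham and MCAO overlap in every class.

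Among voltage-gated genes, Kcnq5 (gene 226922, chr1:21398399-21962650), a subunit of the M-current that damps repetitive firing, had the most loops of any member, 7 in sham and 6 in MCAO. Its sham loops held 10 to 35 PETs and its MCAO loops 10 to 32. A partner was found for 4 of the 7 sham loops and 5 of the 6 MCAO loops. The strongest sham loop, 35 PETs, joined the start to a place 285 kb upstream, and its partner had 27 PETs over 290 kb. A loop that ran nearly from one end of the gene to the other held 15 PETs in sham (548 kb) and 25 in MCAO (551 kb). The layout of Kcnq5 was thus largely shared by the lists, while the PETs of its pairs went both ways: the loop from the far end to 811 kb away held 34 PETs in sham, and its partner held 12. Kcnq3, another M-current subunit, had 2 loops in each list and none with a partner.

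Kcnd2 (gene 16508, chr6:21215346-21729805), the pore of the A-type current of dendrites, had 5 loops in each list and shared none. In sham 4 of the 5 ran upstream from the start, over 599, 687, 1447 and 2195 kb, with 10 to 13 PETs, and the fifth left the far end over 336 kb with 16 PETs. In MCAO 4 of the 5 lay inside the gene, over 317, 418, 455 and 483 kb with 11 to 20 PETs, and 1 ran upstream over 376 kb with 16 PETs. Equal numbers at Kcnd2 therefore stood for different loops, all of them with few PETs. With both anchors trimmed to 10 kb only 2 loops of each list reached its ends.

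The Kcnc genes code for fast channels that let neurons fire at high rates. Kcnc4 (gene 99738, chr3:107438298-107460287) had 2 loops in sham, of 12 and 14 PETs, and 4 in MCAO, of 11, 11, 17 and 34. One was shared: a contact of about 104 kb from the start held 12 PETs in sham and 34 in MCAO. Its 2 anchors together were 13 kb wide in sham and 30.3 kb in MCAO. With the MCAO minimum at 12 PETs Kcnc4 had 2 loops in each list. Kcnc2 (gene 268345) had 0 loops in sham and 2 in MCAO, of 10 and 40 PETs, the stronger from its start across 448 kb. Kcnc1 had 1 and 2 loops.

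Kcnh1, a slow voltage-gated channel of brain, had 1 sham loop of 15 PETs over 406 kb and 3 MCAO loops of 27, 12 and 10 PETs. The loop of 27 PETs was the partner of the sham loop, and the other 2 lay inside the gene. Kcnh5, its nearest relative, carried the strongest loop of the class in MCAO, with 113 PETs in sham over 792 kb and 72 in MCAO over 834 kb. The anchor at the far side touched Dbpht2 in both lists. Kcna2, the main axonal channel of its subfamily, had 2 sham loops (12 and 16 PETs) and 3 MCAO loops (15, 28 and 14). One MCAO loop of 15 PETs joined Kcna2 to Kcna10 over 94.0 kb, and another of 11 PETs joined Kcna10 to Kcnc4 over 263 kb, so that these neighbours on chromosome 3 share loops and are not independent. For the first of these, the sham loop of 10 PETs reached the end of Kcna10, and its other anchor lay inside Kcna2, away from the gene's ends.

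The helper subunits Kcne2 and Kcne4, small membrane proteins that change the gating of voltage-gated pores, differed in pattern. Kcne2 had 3 loops in sham (37, 14 and 11 PETs) and 4 in MCAO (28, 11, 11 and 10). All of its sham loops had a partner. Kcne4 carried the strongest loop of all members in sham, 115 PETs over 682 kb, whose anchors also covered ends of Acsl3 and Scg2. Its MCAO partner held 67 PETs over 731 kb and did not reach the ends of Kcne4. The second sham loop of Kcne4, 10 PETs over 817 kb, had an MCAO partner of 25 PETs over 782 kb that also missed the ends. Kcne4 thus counted 1 loop of 11 PETs in MCAO, although both sham loops had a partner there.

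**Figure D3:**
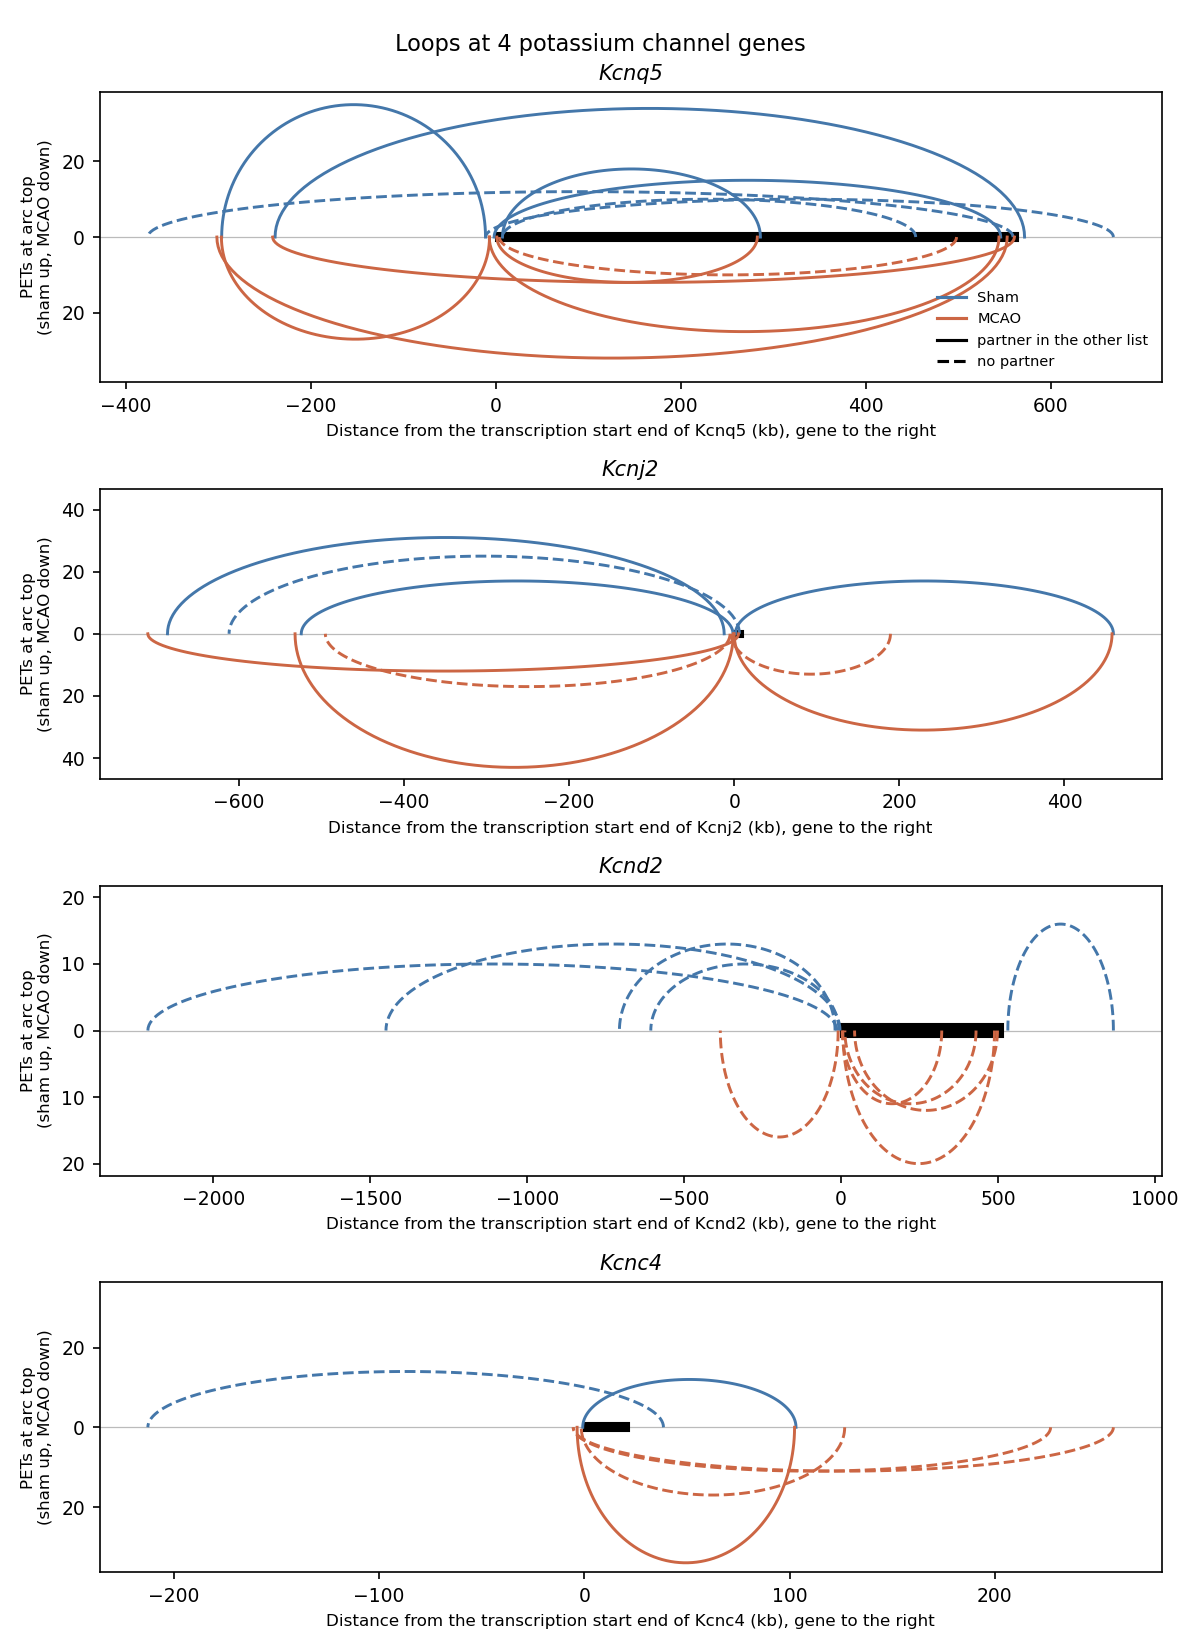
Arcs are loops at Kcnq5, Kcnj2, Kcnd2 and Kcnc4, drawn by distance in kb from the transcription start end with the gene to the right; the height is the number of PETs, with sham above and MCAO below the line. Solid arcs have a partner in the other list and dashed arcs have none, and Kcnd2 has 5 and 5 dashed arcs.

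Among inward rectifiers, Kcnj2 (gene 16518, chr11:111066164-111076825), which codes for Kir2.1 and stabilises the resting potential, had 4 loops in sham (17, 17, 25 and 31 PETs) and 5 in MCAO (12, 13, 17, 31 and 43). Its start lay inside an anchor of each of these loops. Partners were found for 3 of the 4 and 3 of the 5. A contact of 523 kb in sham, at a place upstream, held 17 PETs and its partner held 43, and a contact of 458 kb on the downstream side held 17 and 31. The pair over 674 and 716 kb went the other way, with 31 PETs in sham and 12 in MCAO. The lists therefore shared most of the Kcnj2 contacts, with PETs higher in either list depending on the contact.

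Kcnj9 (gene 16524, chr1:172320508-172329322) codes for a G protein-gated channel and lies beside Kcnj10 (gene 16513), the inward rectifier of astrocytes that clears potassium. In sham Kcnj9 had 3 loops, of 92, 16 and 13 PETs, and in MCAO 1, of 14 PETs. The sham loop of 92 PETs spanned 998 kb, and its anchor of 132 kb covered both Kcnj9 and Kcnj10. Its nearest MCAO loop held 102 PETs over 945 kb and started from an anchor of 102 kb that reached Kcnj10 and not Kcnj9. The MCAO loop of 14 PETs at Kcnj9, over 1045 kb, had the same sham loop as its partner, so this contact was counted at Kcnj9 in both lists. The other sham loops of Kcnj9 were not: that of 16 PETs had an MCAO partner of 14 PETs that missed the gene's ends, and that of 13 PETs had none. Kcnj10 had 2 loops in each list. With a window of 10 kb Kcnj9 had 4 loops in sham and 6 in MCAO, so its direction turned.

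Kcnj6, another G protein-gated channel, had 3 loops in each list, of 23, 22 and 11 PETs in sham and 39, 23 and 19 in MCAO. A loop inside Kcnj6 over 176 kb was shared, with 22 and 39 PETs. Kcnj5, of the same family, had 1 sham loop of 14 PETs and 3 MCAO loops of 14, 13 and 10 PETs, none with a partner; among the loops ranked in the better 50% by the authors' p-value it had 1 and 0. Kcnj11, the pore of the ATP-sensitive channel, had 2 loops in sham, both with anchors that also touched its regulatory subunit Abcc8, and 1 in MCAO that did not.

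Among two-pore channels, Kcnk9 (gene 223604, chr15:72501873-72548614), an acid-sensitive leak channel, had 3 sham loops of 92, 17 and 16 PETs and 4 MCAO loops of 21, 19, 17 and 11. The sham loop of 92 PETs spanned 504 kb and also reached Trappc9. Its nearest MCAO loop held 10 PETs over 501 kb and missed the gene's ends, but the summed width of the anchors was 194 kb in sham and 20.2 kb in MCAO. A second MCAO loop with 19 PETs over 475 kb also fell within the sham loop's anchors. The pair thus had anchors of unlike width, and its log2 ratio of MCAO over sham was -3.42 in PETs per 1000000 and -0.15 in the authors' density.

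Kcnk4, a channel opened by stretch and warmth, had 1 sham loop of 51 PETs over 420 kb and 3 MCAO loops of 23, 14 and 10 PETs over 578, 53.5 and 98.6 kb. Kcnk13 (gene 217826), a leak channel of microglia among other cells, had 2 sham loops of 10 and 12 PETs over 1038 and 887 kb and 3 MCAO loops of 14, 20 and 27 PETs over 69.3, 59.6 and 145 kb. No loop of Kcnk13 or Kcnk4 had a partner. Kcnk12, a poorly conducting relative, had 0 and 2 loops, both of 11 PETs. The median span at Kcnk genes was 438 kb over 11 sham loops and 98.6 kb over 17 MCAO loops, and at all other genes it was 359 and 291 kb. Not every gene of the class had only shorter loops in MCAO: Kcnk18 had 1 sham loop of 79.5 kb and MCAO loops of 74.1 and 294 kb. The spans at Kcnk9 largely overlapped, at 261 to 643 kb in sham and 260 to 591 kb in MCAO. The medians were 332 and 290 kb for the voltage-gated class and 348 and 490 kb for inward rectifiers.

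Among calcium-activated channels, the 3 small-conductance genes that set the afterhyperpolarisation of neurons, Kcnn1, Kcnn2 and Kcnn3, gave different counts. Kcnn1 had 2 loops in sham (25 and 13 PETs) and 3 in MCAO (49, 19 and 18). The loop of 49 PETs was the partner of that of 13 PETs, the highest ratio of MCAO to sham PETs among the 38 pairs of loops found in both lists, and the summed width of its anchors was 64.8 kb in sham and 160 kb in MCAO. Kcnn2 had 3 sham loops of 43, 34 and 30 PETs and 1 MCAO loop of 22 PETs. The sham loop of 30 PETs had an MCAO partner of 10 PETs over 669 kb that missed the gene's ends. Over any part of the gene Kcnn2 had 7 and 6 loops, and with anchors of 10 kb it had 0 and 1, so the lower number was not kept with narrow anchors. Kcnn3 had 0 sham loops and 2 MCAO loops, of 14 and 17 PETs, and kept that direction in each of 9 other settings, as did Kcnc2. Kcnma1, the large-conductance channel opened by calcium and voltage, had 2 loops in each list, of 49 and 10 PETs in sham and 17 and 12 in MCAO.

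The symbol range Kcnm to Kcnt also held Kcns3, a silent subunit that modifies Kv2 channels and was grouped by function with the voltage-gated genes. Kcns3 had a loop of 60 PETs in sham and its partner of 77 PETs in MCAO. Kcnmb2, a helper of Kcnma1 in the same range, had 1 sham loop of 30 PETs. Kcnv1, also a silent subunit but outside this range, had 2 sham loops (30 and 10 PETs) and 3 MCAO loops (27, 10 and 10). Its sham loop of 10 PETs over 263 kb was the partner of the MCAO loop of 27 PETs over 266 kb.

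A partner in the other list was found for 38 of the 86 sham loops at channel genes (44.2%, 33.5 to 55.3; all gene-end loops, 34.5%) and for 32 of the 112 MCAO loops (28.6%, 20.4 to 37.9; all gene-end loops, 28.2%). Of loops with at least 15 PETs, 26 of 45 in sham (57.8%) and 26 of 55 in MCAO (47.3%) had one. Of those with 10 to 14 PETs it was 12 of 41 (29.3%) and 6 of 57 (10.5%). The share with a partner was thus lower near the minimum in both lists. Of the 38 sham loops, 25 had a partner that also reached a channel gene and 13 had one that did not, as at Kcne4, Kcnh8 and Kcnma1.

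In 38 pairs of loops, each the nearest to the other, PETs per 1000000 were higher in MCAO in 16 and lower in 22, with a median log2 ratio of -0.17. The range ran from -3.42 at Kcnk9 to 1.70 at Kcnn1. Of the 22 lower pairs 18 had narrower anchors in MCAO, and of the 16 higher pairs 14 had wider anchors. By the authors' density, which divides by anchor width, 20 of the 38 were higher in MCAO, the median log2 ratio was 0.05, and the range was -0.84 to 1.25. The 92 PETs in sham and 102 in MCAO at Kcnj10 were close per 1000000, with a log2 ratio of -0.06.

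**Figure D4:**
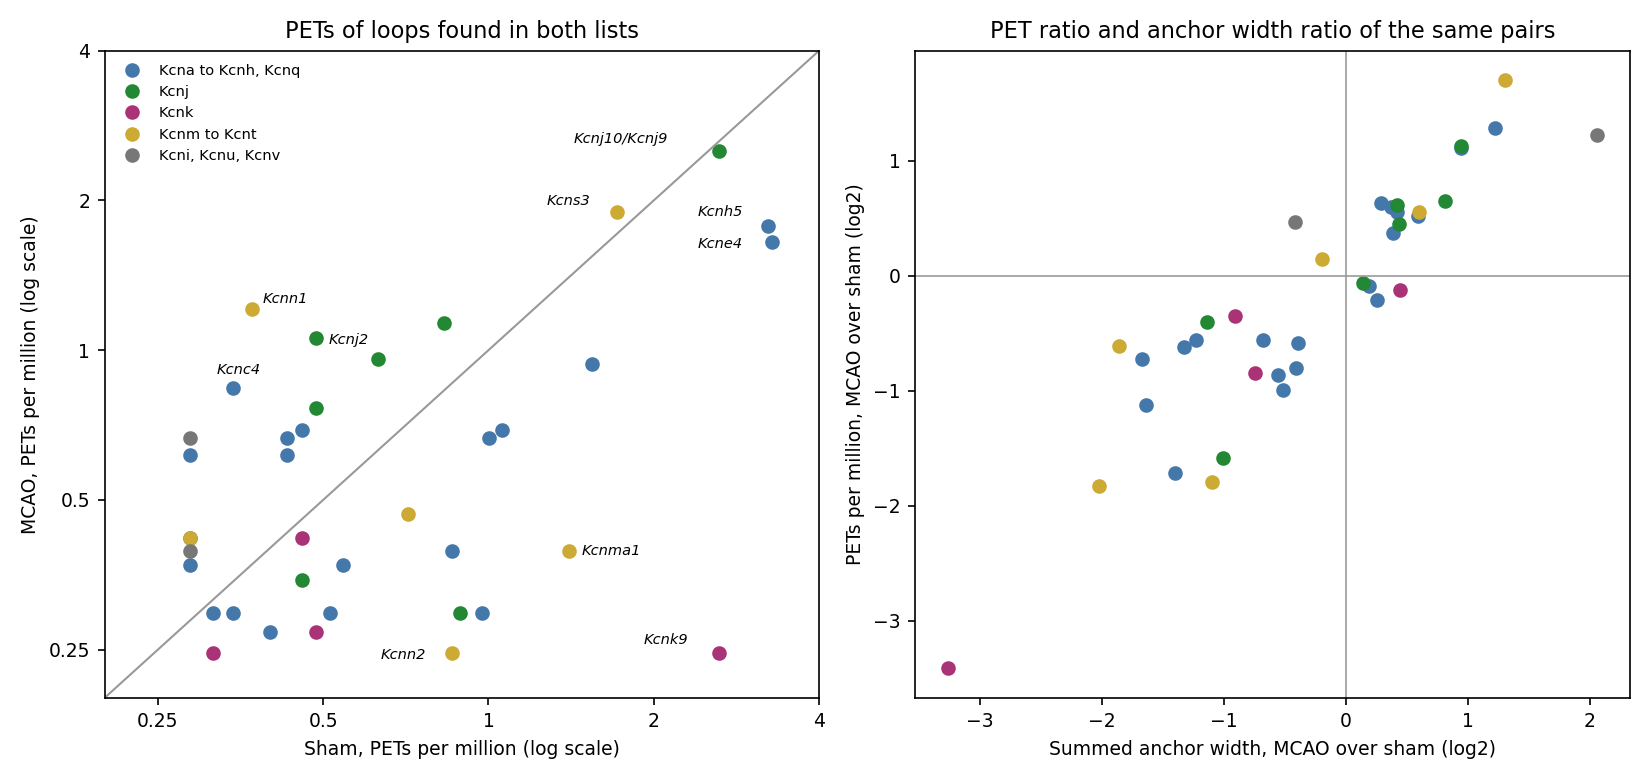
Each point is 1 of the 38 loop pairs at potassium channel genes, coloured by class; the left panel plots PETs per 1000000 in sham against MCAO on log axes, and the right panel plots the log2 ratio of PETs per 1000000 against the log2 ratio of summed anchor width. Points run from Kcnk9 at -3.42 to Kcnn1 at 1.70, and pairs with wider MCAO anchors lie mostly above 0.

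Loops at channel genes spanned a median of 359 kb in sham (261 to 423) and 267 kb in MCAO (223 to 353). At all other genes the medians were 359 and 291 kb, and at loops away from gene ends 397 and 334 kb, so the median was lower in MCAO in all 3 sets. By class it was lower for voltage-gated and two-pore genes and not for the others, at 392 and 400 kb for Kcnm to Kcnt and 197 and 201 kb for the remaining 7 genes. With anchors of 10 kb the order over all channel genes was the reverse, 200.3 kb in sham and 214 kb in MCAO. Spans under 100 kb were seen in 10 sham and 18 MCAO loops, and spans over 1 Mb in 3 and 5. Median anchor width was 23.7 and 20.1 kb, and reads per kb of anchor per 1000000 PETs were 0.641 and 0.690 at channel genes against 0.655 and 0.654 at other genes; their part in the loop numbers was not tested. Both anchors lay within the same channel gene in 9 sham and 15 MCAO loops. Another protein-coding gene's end was touched by 45 of 86 sham loops (52.3%) and 51 of 112 MCAO loops (45.5%), so that a loop counted here often belongs to a neighbour as well.

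For the 68 genes with a strand, a loop at the start end was found at 33 in sham (48.5%, 36.2 to 61.0) and 37 in MCAO (54.4%, 41.9 to 66.5), against 34.5% and 39.4% of 16457 genes. At the far end it was found at 23 (33.8%) and 29 (42.7%), against 30.0% and 33.0%. The share at start ends thus lay above that at far ends in both lists, for channel genes and for all genes. Whole promoters lay inside an anchor at 38 of 93 in sham and 42 in MCAO, 30 of them in both. Some genes have several overlapping promoters, and by gene it was 32 of 68 in sham and 35 in MCAO. The same share over all promoters was not taken, so no comparison with other genes is drawn.

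A list of 25 genes that work beside these channels was set next to them: cation channels gated by cyclic nucleotides, accessory and anchoring proteins, chloride-coupled potassium transporters and the sodium pump. A loop was found at 14 of the 25 in sham (all genes, 44.5%) and 14 in MCAO (all genes, 49.6%). More loops in MCAO were listed at 5 (all genes, 29.7%) and fewer at 7 (all genes, 21.3%), with a median difference of 0. At least 2 more were listed at 3 genes (all genes, 10.2%), among them Atp1b1, a helper subunit of the sodium pump (4 and 6 loops). At least 2 fewer were listed at 3 genes (all genes, 5.45%), Abcc8 (2 and 0), Dpp10, a partner of Kv4 channels (2 and 0), and Slc12a2, a sodium, potassium and chloride carrier (3 and 1).

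**Figure D5:**
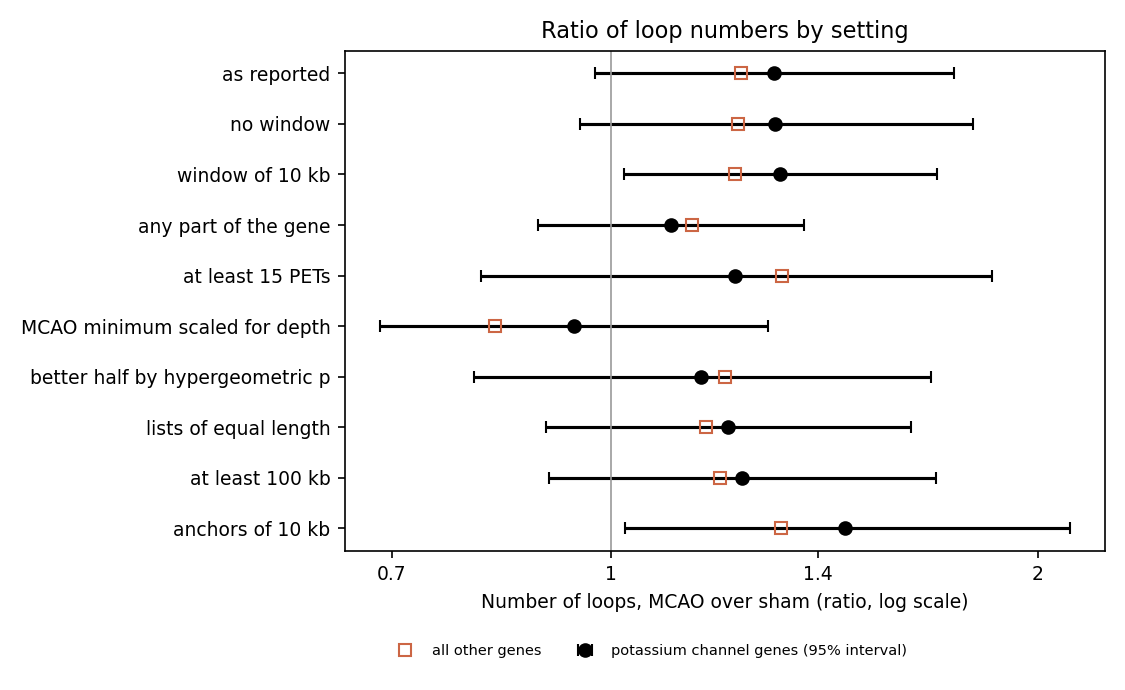
Points give the ratio of loop numbers in MCAO over sham at potassium channel genes, on a log axis with exact binomial 95% intervals, for the reported setting and 9 others; squares give all other genes. The ratio runs from 0.942 to 1.46, and the square lies inside the interval in each setting.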

How the data were processed

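Hi-C loops were compared in sham and MCAO mouse cortex, with groups taken from the sample titles and 1 loop list per group. HiC-Pro, Bowtie2 and mm10 are named in the submitters' processing notes, with no versions; which loop caller was used is not given in the sources used here. Whole-number counts of PETs and of anchor reads were deposited by the authors without scaling. The signal called density was deposited by the authors and equals PETs per kb of anchor per 1000000 PETs, which was checked on every loop and gave each library's total. The authors' ratio values were not used. The p-values were deposited by the authors per loop, with an FDR of at most 0.05, and were used only to rank loops within a list.

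Spans were taken between anchor midpoints. The distinct loops of a list were counted once. Intervals were exact Poisson, Clopper-Pearson or binomial intervals, and order statistics for medians, and PETs may not be independent molecules. Gene ends came from the RefSeq table and strand from the promoter table, in which 24 of the 92 genes had no entry. Genes were named if they had at least 3 loops in a list or a difference of at least 2, or the strongest or most shared loop of a class; others were named after their values were seen. A few genes picked by that rule are not reported here. The members and lists were chosen with earlier results of these data known. Scripts in Python 3.11.15 with numpy 2.4.6, pandas 2.3.3, scipy 1.17.1 and matplotlib 3.10.9 were tested on simulated data. Alternatives covered the window, the PET minimum, the authors' p-value, list length, span, anchor width and the partner rule.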

Additional observations from a re-analysis of the deposited data

How the results depend on the processing

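In 8 of 9 other settings more loops at channel genes were listed in MCAO, and in 2 the interval of the ratio lay above 1. The exception was the MCAO minimum of 12 PETs, with a ratio of 0.942. Genes with at least 2 loops more numbered 13 with a window of 10 kb (all genes, 13.3%), 13 over any part of the gene (12.3%), 2 with the MCAO minimum of 12 PETs (5.02%) and 5 among loops ranked in the better 50% by the hypergeometric p-value of the authors (4.58%). Genes with at least 2 fewer numbered 4, 10 and 6 in the first 3 of these settings (all genes, 6.8%, 6.97% and 7.66%) and 0 with anchors of 10 kb (3.13%). At 15 PETs or more, 34 genes had a loop in sham (all genes, 24.2%) and 35 in MCAO (29.2%). The sham partner share was 31.3% over any part of the gene, and stayed above the MCAO share in all 9 settings. The MCAO median span was 189 kb among the better-ranked loops. Anchors of 10 kb gave 200.3 kb for sham and 214 kb for MCAO, the reverse order. The cause of these changes was not tested. Of genes with a difference of 2 loops, Kcnj9 turned from -2 to 2 with a window of 10 kb, Kcnn2 from -2 to 1 with anchors of 10 kb and Kcnj5 from 2 to -1 among the better-ranked loops. Of 56 channel genes with any difference, 15 took the opposite sign in at least 1 setting. The same share over all genes was not taken. The intervals of single genes are wide, so a value inside its interval shows no stability. The other 121 values for groups of genes stayed inside the interval of the reported value or, for counts, within 1.5 times of it. With 1 library per group no library could be left out. No paired analysis was possible because each group has 1 library.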

Other observations

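Loops with an anchor in the body of a channel gene and none at its ends were not counted in the report. The sham list had 81 of these and the MCAO list 71, counted per gene. Loops with both anchors in the same gene, at its ends or not, numbered 35 and 45. Kcnip4, a calcium-binding helper of Kv4 channels that had no loop at its ends, held 6 and 5 loops with both anchors inside, and Kcnma1 held 6 and 7. Kcnd2 held 3 in sham and 6 in MCAO, Kcnh7, an ERG-type channel, 3 and 2, and Kcnt2, a sodium-activated channel, 2 and 0. The members on the X chromosome that the rule leaves out, Kcnd1 and Kcne1l, had 0 loops at their ends in either list. The long noncoding RNA genes Kcnd3os and Kcnmb4os2 had 1 and 1 and 1 and 0 loops.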
